A study of Mus musculus with 6 samples.

Results

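The genes described here are the aminoacyl-tRNA synthetases of the mouse, taken by symbol from all features counted in 6 RNA-seq libraries of embryonic neocortex. The rule kept every protein-coding gene whose symbol names such an enzyme and gave 38 genes of 48709 counted. Of these, 21 encode cytosolic enzymes, 2 of them (Gars and Kars) serving mitochondria as well, and 17 encode mitochondrial enzymes. All 38 passed the filter on low counts, which left 15385 tested genes. The rule reads symbols only, and the family was chosen with earlier results of these data known.

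The study compared heterozygous embryos carrying 1 Rest allele without exon 4 (Rest +/deltaExon4, called Rest_het below) with wild-type embryos (WT), 3 libraries each, all of strain C57BL/6 at E15.5. REST represses neuronal genes through zinc fingers that bind DNA, and the series concerns its alternative splicing. The libraries held 17835117 to 18426652 gene reads in Rest_het and 19996943 to 20753653 in WT. The labels do not say whether embryos shared a litter, so p-values measure the spread between these libraries. Levels are TMM-scaled CPM, each gene's share of the gene reads of its library, differences are log2 ratios of Rest_het over WT with their standard error (SE), and edgeR's quasi-likelihood test, with Benjamini-Hochberg adjustment over all tested genes, calls a gene where its adjusted p is under 0.05.

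Rest itself averaged 18.1 ± 1.23 CPM in Rest_het and 20.6 ± 0.778 in WT (SD, n = 3 each; edgeR adjusted p = 0.49). Its gene total runs over all exons and does not check the deletion. Among the transgene sequences counted with the genome, reads of Cre-ERT2 and LacZ separated the groups. The Rest_het libraries gave 10, 16 and 17 Cre-ERT2 reads, the WT libraries 0, and for LacZ the Rest_het libraries gave 0, the WT libraries 27, 51 and 43. The labels name neither of these transgenes. The RVG, EGFP and beta-lac sequences, also counted, gave 0 to 2 reads per group. Cortical neuron markers were present in all 6 libraries, with Neurod2 at 202 to 218 CPM and Tbr1 at 23.7 to 27.2 CPM. Tissue markers outside the cortex differed between libraries: 8 choroid plexus markers summed to 181.4, 9.53 and 378.3 CPM in Rest_het against 60.1, 4.22 and 5.67 in WT. Most of this came from Ttr, at 169.4, 5.49 and 357.2 CPM in Rest_het against 53.0, 2.27 and 3.09 in WT. Of these markers 6 were tested, all above 0 (median log2 difference 1.84). Only Otx2 did not overlap, higher in Rest_het (1 of 6, against 10.4% of all tested genes). The sum of 8 endothelial and mural markers was 1554, 1249 and 327.4 CPM in Rest_het against 348.8, 221.1 and 278.1 in WT, most of it from the mural gene Rgs5, at 1432, 1161 and 196.4 CPM in Rest_het against 216, 152.4 and 180.7 in WT. All 8 markers of that list overlapped between the groups (median log2 difference 0.18), with Pecam1 and Flt1 at -0.18 and -0.11. Young neuron markers summed to 4215, 4125 and 3972 CPM in Rest_het against 4961, 4699 and 4490 in WT, so those groups did not overlap. Of these 9 markers 8 were below and 1 above 0 (median log2 difference -0.19). For 4 of the 9 the groups did not overlap, all lower in Rest_het (against 8.94% of all tested genes). DESeq2 called 1 of the 9, lower in Rest_het (against 0.826% of all tested genes). Of the 10 thalamus and hypothalamus markers listed, 6 were tested and all 6 were above 0 (median log2 difference 0.91). For 4 of the 6 the groups did not overlap, all higher in Rest_het (against 10.4% of all tested genes): Prox1 (1.45), Lhx9 (1.05), Barhl2 (1.84) and Calb2 (0.77). DESeq2 called Barhl2, 1 of the 6 (against 0.826% of all tested genes). The sum of that list, 177.0 to 294.5 CPM in Rest_het and 178.1 to 261.2 in WT, overlapped because Tcf7l2 (0.04) makes up most of it. Some genes of the list, such as Lhx2, Prox1 and Calb2, may also be expressed in the cortex. Which cells their reads came from was not tested. The remaining marker sums overlapped, with ventral telencephalon at 252.5 to 543.9 in Rest_het and 206.1 to 357.6 in WT, microglia at 47.4 to 61.0 in Rest_het and 42.8 to 61.2 in WT, erythroid cells at 320.5 to 670.2 in Rest_het and 527.2 to 665.8 in WT, and apical progenitors at 1371 to 1476 in Rest_het and 1397 to 1630 in WT. In that order, the median log2 differences of the lists were 0.44, 0.074, -0.21 and 0.068. In bulk tissue, fewer cells of a type and less RNA per cell cannot be told apart, and the part of these shifts in the synthetase values was not tested.

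Aminoacyl-tRNA synthetases join each amino acid to its own tRNA, the step that sets the meaning of the genetic code. The cytosol and the mitochondrion use largely separate sets of enzymes, all encoded in the nucleus. In the cytosol several of them sit together in the multisynthetase complex, held by the scaffold proteins encoded by Aimp1, Aimp2 and Eef1e1. Cytosolic phenylalanyl-tRNA synthetase is built from 2 kinds of subunit, the catalytic alpha subunit (Farsa) and the beta subunit (Farsb), while its mitochondrial counterpart (Fars2) works as a single chain. Uncharged tRNA activates the kinase GCN2, which phosphorylates eIF2 and raises translation of the transcription factor ATF4, and several cytosolic synthetase genes are known ATF4 targets.

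RefSeq promoter windows (GRCm38.p6, 250 bases before to 50 after the start site) were found for 28 of the 38 genes. Those of the genes whose values are given first below are shown, chosen after their values were seen, so that the matches can be read in place. Capitals mark matches, on either strand, to any of 10 motifs searched: the C/EBP-ATF response element (TGATGNAA), the E-box (CACGTG), the left (CAGCACC) and right (GGACAGC) ends of the REST-binding RE1 element, the ETS motif (CCGGAAGT), the CRE (TGACGTCA), its core (TGACGT, which the CRE contains), the CCAAT box (CCAAT), and the NRF1 and YY1 motifs, of 10 letters each.
Farsa, chr8:84856736-84857035, plus strand: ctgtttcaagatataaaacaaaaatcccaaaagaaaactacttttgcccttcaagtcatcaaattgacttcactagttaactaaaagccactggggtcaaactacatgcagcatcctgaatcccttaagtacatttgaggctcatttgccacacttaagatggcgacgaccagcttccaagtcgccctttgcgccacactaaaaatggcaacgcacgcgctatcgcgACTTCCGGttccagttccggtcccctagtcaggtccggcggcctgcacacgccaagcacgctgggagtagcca
Farsb, chr1:78488848-78489147, minus strand: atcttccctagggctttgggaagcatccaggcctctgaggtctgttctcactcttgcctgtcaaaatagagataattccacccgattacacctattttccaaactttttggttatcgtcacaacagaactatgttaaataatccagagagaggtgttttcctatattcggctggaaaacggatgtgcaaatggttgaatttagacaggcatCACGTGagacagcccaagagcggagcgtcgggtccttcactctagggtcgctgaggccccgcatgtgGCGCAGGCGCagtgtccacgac
Vars2, chr17:35667543-35667842, minus strand: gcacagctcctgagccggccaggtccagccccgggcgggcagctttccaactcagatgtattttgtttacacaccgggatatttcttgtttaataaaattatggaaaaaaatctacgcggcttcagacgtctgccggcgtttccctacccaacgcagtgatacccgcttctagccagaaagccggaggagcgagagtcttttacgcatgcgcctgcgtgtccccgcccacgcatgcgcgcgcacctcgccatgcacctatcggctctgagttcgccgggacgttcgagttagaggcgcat
Yars, chr4:129189653-129189952, plus strand: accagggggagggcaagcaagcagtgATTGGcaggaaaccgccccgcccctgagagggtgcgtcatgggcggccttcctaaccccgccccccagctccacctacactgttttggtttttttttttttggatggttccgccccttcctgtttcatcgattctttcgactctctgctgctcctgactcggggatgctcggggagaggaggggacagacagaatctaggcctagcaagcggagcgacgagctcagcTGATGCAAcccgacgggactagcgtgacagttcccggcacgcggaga
Gars, chr6:55037751-55038050, plus strand: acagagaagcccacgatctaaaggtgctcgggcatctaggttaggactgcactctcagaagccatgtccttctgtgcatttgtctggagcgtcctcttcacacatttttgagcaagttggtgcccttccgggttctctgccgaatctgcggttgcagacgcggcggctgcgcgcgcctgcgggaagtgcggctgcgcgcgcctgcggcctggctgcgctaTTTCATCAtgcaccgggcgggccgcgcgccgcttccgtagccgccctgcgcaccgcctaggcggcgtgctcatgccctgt

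In Farsa the capitals are an ETS match beginning 23 bases before the start site. This window holds no exact match to the other motifs, though it holds the YY1 motif except for its last letter. Near matches were not marked in any window. In Farsb they are an E-box beginning 39 bases before the start and an NRF1 match beginning 28 bases after it. Vars2 holds no match, which says only that these letters are not in this window. Yars carries the C/EBP-ATF element beginning 3 bases after the start and a CCAAT box beginning 224 bases before it, and Gars carries the C/EBP-ATF element beginning 30 bases before its start.

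Farsa was the only synthetase gene called by edgeR. It encodes the catalytic subunit of the cytosolic phenylalanine enzyme (ENSMUSG00000003808, chr8:84856989-84869257, plus strand, GRCm38). Its level was 40.2, 40.8 and 36.3 CPM in Rest_het and 63.6, 66.9 and 64.9 CPM in WT. Every Rest_het library was below every WT library, and the gap between the groups was wider than the spread within either. The means were 39.1 ± 2.45 CPM in Rest_het and 65.1 ± 1.67 in WT (SD, n = 3 each), from 683 to 744 reads in Rest_het and 1260 to 1330 in WT. The log2 difference was -0.74 (SE 0.083; edgeR adjusted p = 0.0199), which puts Rest_het at 0.600 of WT (interval 0.536 to 0.672, from the 95% normal interval of the log2 difference). DESeq2 also called it (adjusted p = 2.2e-08). An exact two-sided permutation test over the 6 libraries gave p = 0.1, the smallest that 3 against 3 allows. Any gene whose groups do not overlap (19.3% of tested genes) gives that value, so the permutation test adds nothing to the lack of overlap. Leaving out any of the 6 libraries kept the log2 difference between -0.76 and -0.68 but raised the edgeR adjusted p to between 0.055 and 0.10, so the edgeR call needed all 6.

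Farsb, which encodes the partner subunit (ENSMUSG00000026245, chr1:78417975-78488897, minus strand), was not called. It stood at 74.8, 81.4 and 83.1 CPM in Rest_het and 86.1, 100 and 95.5 CPM in WT. The groups did not overlap, although the highest Rest_het library lay close to the lowest WT library. The log2 difference was -0.24 (SE 0.090; edgeR adjusted p = 0.396). Farsb shares 248 exon bases with Sgpp2 on the opposite strand. Reads that overlap both genes were set aside as ambiguous, a class of 2.54% to 2.85% of pairs per library. The ratio of Farsa to Farsb, each per kilobase of transcript, was 0.599, 0.559 and 0.487 in Rest_het against 0.823, 0.743 and 0.757 in WT, so the alpha subunit transcript was lower relative to its partner in every Rest_het library. Fars2, the mitochondrial phenylalanine enzyme (ENSMUSG00000021420, chr13:36117412-36726280, plus strand), stood at 28.2, 29.9 and 28.4 CPM in Rest_het and 28.9, 33.3 and 31.3 CPM in WT. Those ranges overlapped (log2 difference -0.11; edgeR adjusted p = 0.64).

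**Figure D1:**
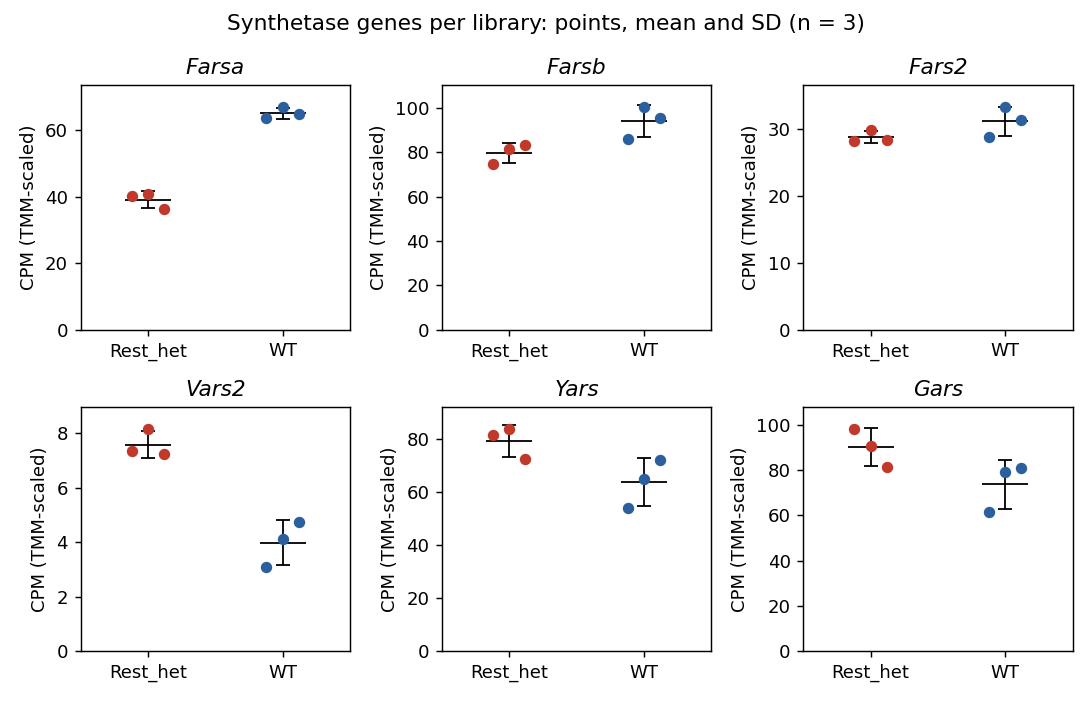
CPM of Farsa, Farsb, Fars2, Vars2, Yars and Gars in each library, Rest_het left of WT, with points for libraries and bars for the mean and SD of 3. Farsa lies at 36.3 to 40.8 CPM in Rest_het and 63.6 to 66.9 in WT, whereas the ranges of Fars2 overlap.

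Vars2, the mitochondrial valine enzyme (ENSMUSG00000038838, chr17:35655634-35667592, minus strand), had the highest log2 difference of the 38. It was at 7.35, 8.15 and 7.22 CPM in Rest_het and 3.11, 4.11 and 4.74 CPM in WT, from 136 to 147 reads in Rest_het and 65 to 92 in WT. All 3 Rest_het libraries were above all 3 WT libraries. The log2 difference was 0.93 (SE 0.19), or 1.90 times WT (interval 1.46 to 2.48). It was not called by edgeR (adjusted p = 0.32), while DESeq2 called it (adjusted p = 0.021). Vars2 shares 465 exon bases with Gm20483 on the opposite strand. Its cytosolic counterpart Vars averaged 17.2 ± 2.56 CPM in Rest_het and 15.02 ± 2.34 in WT (SD, n = 3 each; edgeR adjusted p = 0.65).

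Yars, the cytosolic tyrosine enzyme (ENSMUSG00000028811, chr4:129189760-129219607, plus strand), was at 81.7, 83.9 and 72.6 CPM in Rest_het and 54.1, 64.9 and 72.2 CPM in WT. The groups did not overlap, but the lowest Rest_het and the highest WT library nearly met. The log2 difference of 0.32 (SE 0.12) had an edgeR p of 0.029 and an adjusted p of 0.395. Gars, the glycine enzyme of both compartments (ENSMUSG00000029777, chr6:55038007-55079500, plus strand), was named after its values were seen. It was at 98.0, 90.6 and 81.2 CPM in Rest_het and 61.3, 78.9 and 80.6 CPM in WT, again without overlap and with WT replicate 1 the lowest library. Its log2 difference was 0.29 (SE 0.126; edgeR adjusted p = 0.43). Without WT replicate 1 the log2 difference was 0.17 for Gars and 0.21 for Yars.

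Over the whole family, edgeR called 1 of 38 genes against 0.123% of all tested genes: 1 lower in Rest_het against 0.0585% and 0 higher in Rest_het against 0.065%. At an unadjusted p under 0.05 it counted 4 of 38 (10.5%) against 11.7%, with 2 lower in Rest_het against 4.72% and 2 higher against 6.98%. The groups did not overlap for 10 of 38 (26.3%) against 19.3% of tested genes, and DESeq2 called 2 against 0.826%. The 10 were 4 genes lower in Rest_het (Farsa, Farsb, Sars and Hars, against 8.94% of tested genes) and 6 higher in Rest_het (among them Vars2, Yars, Gars, Hars2 and Yars2, against 10.4%). Log2 differences were below 0 for 21 genes and above 0 for 17, with a median of -0.039 against 0.0054 over all tested genes. In 32 of 38 genes (84.2%) the log2 difference was within 0.2 of 0. The same held for 57.05% of all tested genes and for 65.7% of the 11076 tested genes whose mean level reached that of the lowest synthetase gene.

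**Figure D2:**
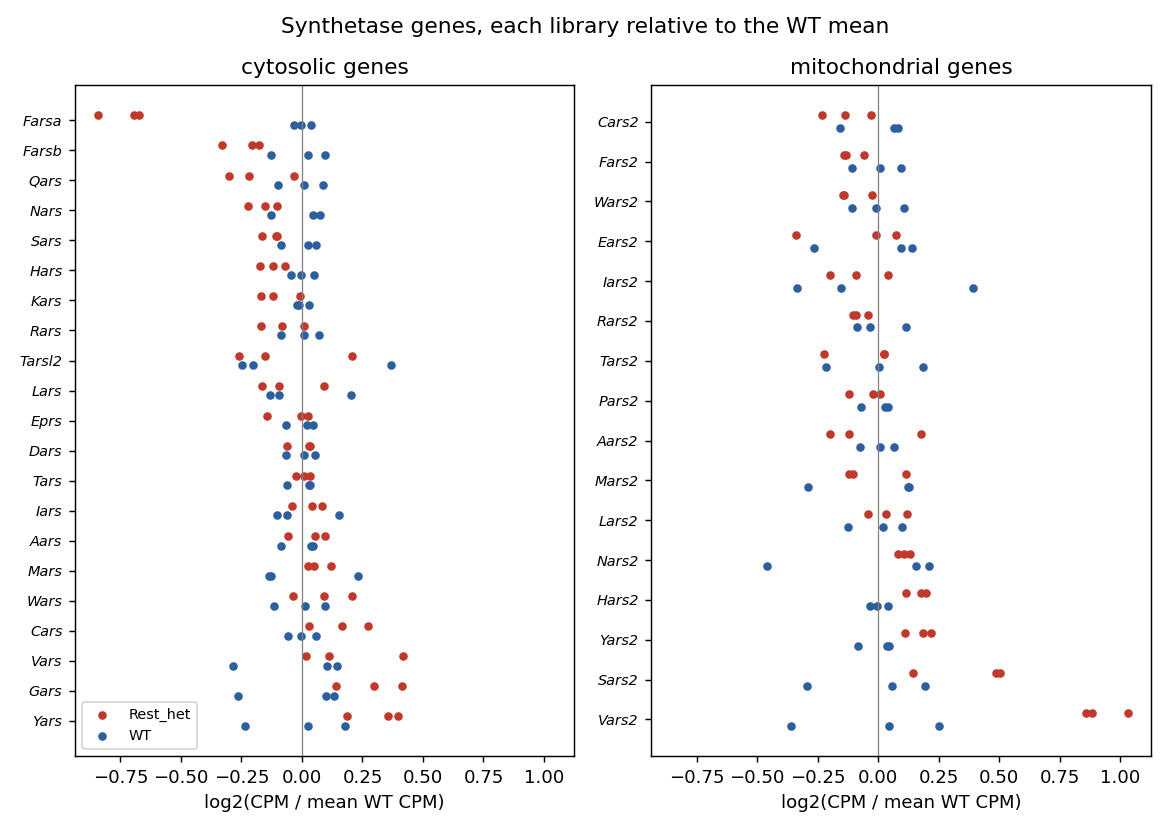
CPM of each library divided by the mean of the 3 WT libraries, on a log2 axis, for cytosolic and mitochondrial genes, with Rest_het points (red) above WT points (blue) for each gene. Farsa is the farthest to the left, Vars2 (log2 difference 0.93) the farthest to the right, and the points of most genes overlap between the groups.

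Among the 21 cytosolic genes the log2 differences ran from -0.74 to 0.32, with 11 below and 10 above 0 and a median of -0.039. Sars, the serine enzyme, averaged 166 ± 3.89 CPM in Rest_het and 181 ± 9.22 in WT, and Hars, the histidine enzyme, 72.1 ± 2.61 CPM in Rest_het and 78.5 ± 2.64 in WT (SD, n = 3 each). Both had a log2 difference of -0.12 and neither was called. Aars, Cars, Dars, Iars, Lars, Mars, Nars, Qars, Rars, Tars, Vars, Wars, Eprs, Kars and Tarsl2 overlapped between the groups. The aspartate enzyme Dars averaged 115 ± 4.28 CPM in Rest_het and 115 ± 4.82 in WT, a difference whose sign depended on the scaling.

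The 8 enzymes of the multisynthetase complex had log2 differences from -0.18 (Qars, the glutamine enzyme) to 0.07 (Mars, the methionine enzyme). Of the 8, 0 had an unadjusted p under 0.05 (against 11.7% of all tested genes), 0 were called by edgeR or DESeq2 and 0 were without overlap. The 13 cytosolic genes outside the complex, which include Farsa, Farsb, Yars and Gars, had a median of 0.0062 and held all 6 cytosolic genes whose groups did not overlap, 6 of 13 against 0 of 8 in the complex and 19.3% of all tested genes. The difference between these sets was not tested.

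Among the 17 mitochondrial genes the log2 differences ran from -0.13 (Cars2) to 0.93 (Vars2), with 10 below and 7 above 0 and a median of -0.039. Besides Vars2, the genes whose groups did not overlap included Hars2 and Yars2. Hars2 averaged 32.6 ± 0.976 CPM in Rest_het and 29.2 ± 0.744 in WT, and Yars2 25.3 ± 0.94 in Rest_het and 22.5 ± 1.08 in WT (SD, n = 3 each). Their log2 differences were 0.16 and 0.17, and neither was called. Hars and Hars2 lie next to each other on opposite strands and share 195 exon bases. Reads that overlap both genes were set aside as ambiguous and counted for neither.

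Levels were compared between genes per kilobase of each gene's principal transcript. Kars, the lysine enzyme of both compartments (ENSMUSG00000031948, chr8:111993443-112011323, minus strand), had the highest cytosolic level, at 210.4 CPM per kilobase over all libraries. It was at 389, 435 and 402 CPM in Rest_het and 433, 446 and 431 CPM in WT (log2 difference -0.10). Tarsl2, a threonine enzyme (chr7:65644898-65692091), had the lowest at 2.41 CPM per kilobase, with 6.54, 7.04 and 9.03 CPM in Rest_het and 6.60, 6.80 and 10.1 CPM in WT. Both genes overlapped between the groups. Lars2, the mitochondrial leucine enzyme (ENSMUSG00000035202, chr9:123366927-123462666), was the highest mitochondrial gene, at 152.8 CPM per kilobase. Its counts gave 571, 600 and 638 CPM in Rest_het and 538, 628 and 595 CPM in WT, and where in the gene its reads lie was not examined. Mars2, the mitochondrial methionine enzyme (chr1:55237177-55248470), was the lowest at 1.03 CPM per kilobase, with 10.9, 12.7 and 10.8 CPM in Rest_het and 12.8, 9.60 and 12.8 CPM in WT. With merged exon length in its place, Ears2 was the lowest mitochondrial gene and Farsa moved to rank 14 from rank 10 of 21.

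Summed per kilobase, the cytosolic genes gave 739.7 ± 23.8 CPM in Rest_het and 771.4 ± 25.2 in WT, and the mitochondrial genes 270.1 ± 7.19 in Rest_het and 264.1 ± 16.9 in WT (SD, n = 3 each). Without Lars2 the mitochondrial sums were 115.2 ± 1.52 in Rest_het and 113.4 ± 5.27 in WT. The cytosolic sum over the mitochondrial sum without Lars2 was 6.37, 6.58 and 6.30 in Rest_het against 6.94, 6.73 and 6.75 in WT. Lars2 was set aside after its level was seen. Kars, at 210.4 CPM per kilobase over all libraries, and Gars serve both compartments and were kept in the cytosolic sum. With Lars2 kept the ratio was 2.82, 2.83 and 2.58 in Rest_het against 3.05, 2.86 and 2.87 in WT. With Farsa and Lars2 both set aside it was 6.18, 6.39 and 6.13 in Rest_het against 6.62, 6.42 and 6.44 in WT. The groups did not overlap in these 3 forms, but the last 2 separated them by little. The form with Farsa set aside and Lars2 kept was not computed. Without Farsa the cytosolic sum per kilobase was 718.9, 740.5 and 695.4 in Rest_het against 716.9, 763.2 and 727.2 in WT, which overlapped.

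Across 17 amino acids, 19 combinations of a cytosolic and a mitochondrial gene could be formed. The cytosolic gene was higher per kilobase in 16, led by Wars over Wars2 at 35.8 and Eprs over Ears2 at 31.4, and the mitochondrial gene in 3: Lars2 over Lars (cytosolic to mitochondrial ratio 0.104), Tars2 over Tarsl2 (0.197) and Rars2 over Rars (0.895). The ratio of Farsa to Fars2 was 1.58 ± 0.0856 in Rest_het and 2.44 ± 0.114 in WT, and that of Vars to Vars2 was 2.43 ± 0.424 in Rest_het and 4.07 ± 0.373 in WT (SD, n = 3 each). In 10 of the 19 the log2 differences of the 2 genes had opposite signs.

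**Figure D3:**
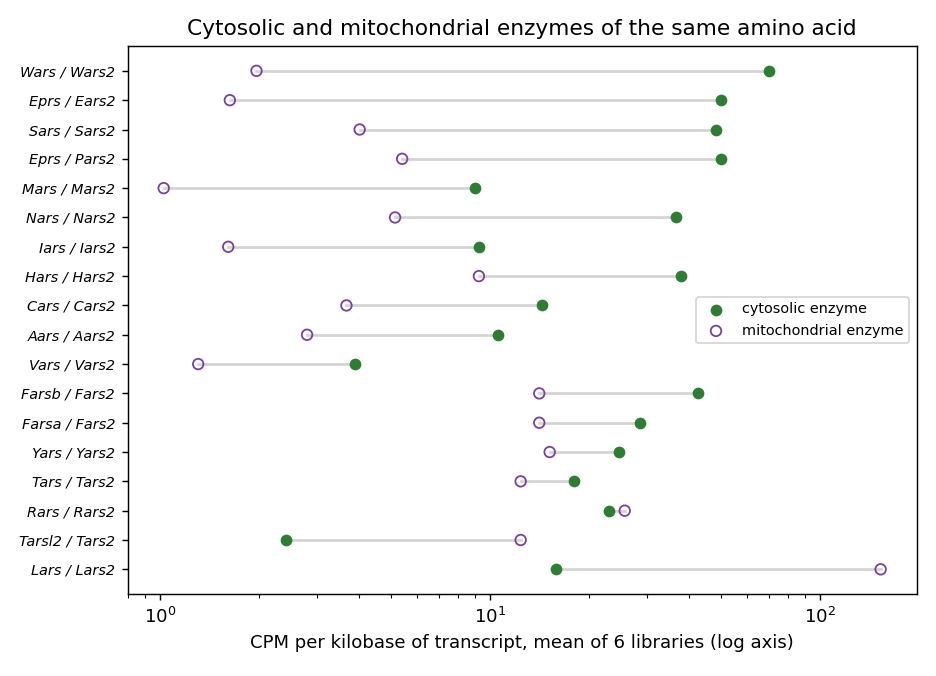
Level of the cytosolic (filled) and mitochondrial (open) enzyme of each amino acid in CPM per kilobase on a log axis, as means of all 6 libraries. The filled point lies to the right in all rows shown but Lars / Lars2, Tarsl2 / Tars2 and Rars / Rars2, and Lars / Lars2, with a ratio of 0.104, is at the bottom.

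The promoter matches were set beside the differences as a description. The C/EBP-ATF element was in 3.97% of 32851 windows and in 5 of the 28 synthetase windows, Aars, Gars, Iars, Tars and Yars, all cytosolic. Their log2 differences ran from 0.0062 to 0.32 (median 0.032, 5 of 5 above 0), while the other 9 cytosolic genes with a window had a median of -0.096 and 2 above 0. The sign of Tars depended on the scaling, and those of Aars, Iars and Tars turned when some libraries were left out, so 3 of the 5 signs were not stable. Splits by other motifs also differed: 5 of 7 cytosolic genes with a CCAAT box were above 0 against 2 of 7 without it, and 3 of 4 with an E-box against 4 of 10 without it. None of these splits was tested. The E-box was in 7.15% of windows and in 5 synthetase windows (Aars, Ears2, Farsb, Iars and Tars). The ETS motif was in 3.89% of windows and in 3 synthetase windows (Farsa, Mars and Rars2), whose cytosolic members Farsa and Mars had log2 differences of -0.74 and 0.07. The NRF1 motif was in 6.23% of windows and in Farsb, Iars2, Kars, Mars2 and Tars, and the YY1 motif in 0.852% and in Aars2 and Yars2. The left end of RE1 was in 7.14% of windows and in Yars2 alone, and the right end in 6.56% and in 0 of the 28. The CRE was in 1.79% of windows and in 0 of the 28, its core in 7.51% and in 4, and the CCAAT box in 37.4% and in 13.

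Around Farsa, 26 other tested protein-coding genes start within 250 kb. None of the 26 was called by edgeR and DESeq2 called 1 (against 0.826% of all tested genes). At an unadjusted p under 0.05 there were 8 of 26, against 11.7% of all tested genes, of which 3 were lower in Rest_het (Nfix, Gm5741 and Wdr83os, against 4.72%) and 5 higher in Rest_het (Nacc1, Dand5, Syce2 and Tnpo2 among them, against 6.98%). The flanking genes Calr and Syce2 averaged 58.4 ± 2.87 and 37.8 ± 2.67 CPM in Rest_het against 54.2 ± 4.27 and 30.1 ± 2.87 in WT (SD, n = 3 each). The median log2 difference of the 26 was 0.145 and the range -1.69 to 0.71. The nearest gene called by edgeR was Sall1, 4.17 Mb away (log2 difference -1.05), while Irs1 lay 3.82 Mb from Farsb (-0.81) and Tmem163 and Mgat5 lay 0.877 and 1.16 Mb from Dars (5.58 and -0.73).

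**Figure D4:**
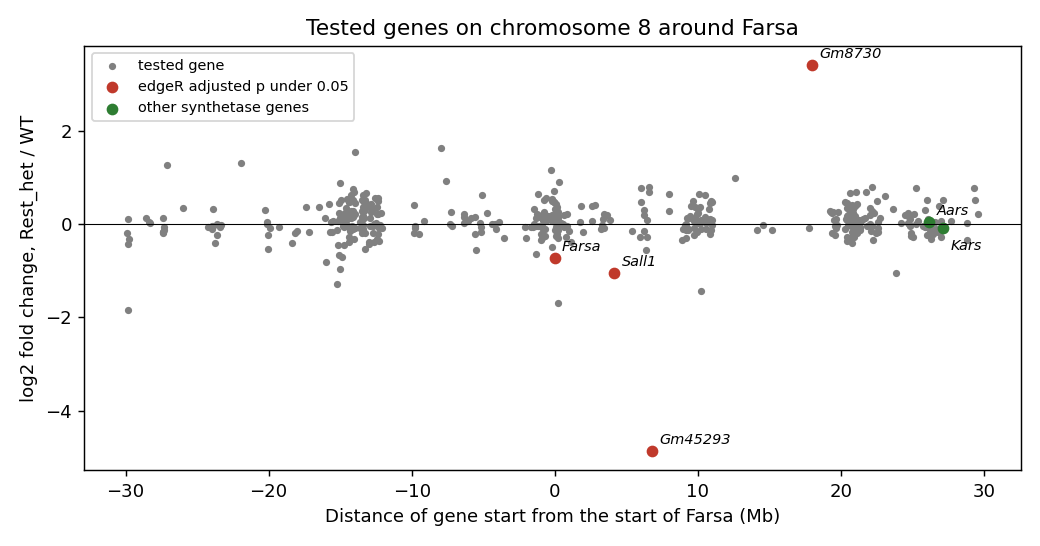
Log2 difference of Rest_het over WT for tested genes of chromosome 8, by distance of the gene start from that of Farsa in Mb, with genes called by edgeR in red and other synthetase genes in green. Farsa at -0.74 stands among neighbours on both sides of 0, and Sall1 is the nearest other called gene.

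The genes that work with the synthetases were not called. Of 15 cofactors and scaffolds, 6 were below and 9 above 0 (median log2 difference 0.068), with 0 called by edgeR or DESeq2 and 3 of 15 at an unadjusted p under 0.05 (against 11.7% of all tested genes), all higher in Rest_het (against 6.98%). Aimp2, a scaffold of the multisynthetase complex, averaged 21.6 ± 4.60 CPM in Rest_het and 15.4 ± 0.938 in WT (SD, n = 3 each; edgeR adjusted p = 0.36). Dtd2, which removes wrongly attached amino acids, averaged 12.7 CPM in Rest_het and 9.37 in WT. Mtfmt, which formylates the mitochondrial initiator tRNA, averaged 18.3 CPM in Rest_het and 13.9 in WT. The scaffolds Aimp1 and Eef1e1 had log2 differences of -0.12 and 0.05.

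Of 33 genes of the ATF4 pathway 29 were tested, and 0 were called by edgeR or DESeq2. The log2 difference was above 0 in 20 and below 0 in 9, with a median of 0.133 against 0.0054 over all tested genes. At an unadjusted p under 0.05 there were 4, all higher in Rest_het (13.8% against 11.7%), and 8 did not overlap (27.6% against 19.3%). Slc3a2, the heavy chain of an amino acid transporter, averaged 64.7 ± 1.70 CPM in Rest_het and 52.7 ± 2.88 in WT, and Shmt2, a mitochondrial serine enzyme, 31.7 ± 2.86 in Rest_het and 24.8 ± 3.25 in WT (SD, n = 3 each). Sesn2 and Chac1 each had a log2 difference of 0.83 at low levels, 1.69 and 2.18 CPM in Rest_het against 0.950 and 1.22 in WT. Atf4 itself averaged 74.8 ± 2.56 CPM in Rest_het and 78.0 ± 3.93 in WT, and the asparagine synthetase gene Asns had a log2 difference of 0.16. The list's median was 0.23 without Rest_het replicate 2 and 0.090 without WT replicate 1. Its summed level was 926.9, 897 and 910.4 CPM in Rest_het against 749.4, 922.9 and 892.2 in WT, so the sums overlapped and WT replicate 1 stood below the rest. Of 13 eIF2 kinase and eIF2-related genes 0 were called by edgeR or DESeq2, and the median was 0.047. At an unadjusted p under 0.05 there was 1 of 13 (against 11.7% of all tested genes). It was Eif2b2, at 33.8 ± 0.919 CPM in Rest_het and 26.8 ± 1.20 in WT.

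**Figure D5:**
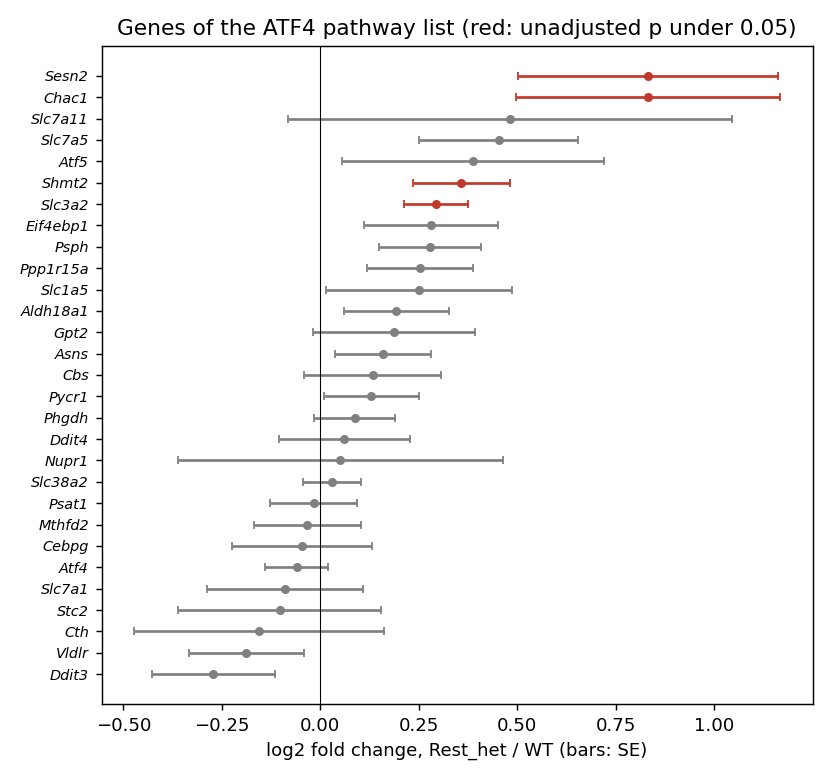
Log2 difference of Rest_het over WT for the 29 tested genes of the ATF4 pathway, with bars of 1 SE and red points at an unadjusted p under 0.05. Of the 29, 20 lie above 0, 4 of them red, and Atf4 itself lies at -0.06.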

How the data were processed

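Total RNA of dissected neocortex was copied to cDNA with oligo-dT and template switching, amplified for 12 PCR cycles, tagmented and read as 126-base pairs, per the labels' protocols. The submitters' processing notes name STAR 2.5.2a, GRCm38.p4 and DESeq2. The authors deposited whole read counts per gene, and the unstranded column was used. The forward strand took 49.95% to 50.1% of reads, unmapped reads were 1.21% to 1.45% and multimapping reads 6.29% to 7.48%. The authors' normalized table was not used here.

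Of 48709 IDs, 48349 matched GENCODE M21 for symbol and position. Genotype was fitted in edgeR 4.0.16 (R 4.3.3) with TMM scaling and filterByExpr (minimum count 10, total 15), over all 15385 tested genes, and the common biological coefficient of variation was 0.183. The test was checked on simulated data. Alternatives used DESeq2 1.42.0, limma 3.58.1, other scalings, other filters, a replicate block and each library left out. The principal transcript length was adopted after both lengths and the levels were seen, because merged exons include retained introns. The members and lists were chosen with earlier results of these data known. Named genes were Farsa, Farsb, Fars2, every member at an unadjusted p under 0.05, the highest and lowest level per compartment, up to 4 per list and the neighbours of Farsa. Atf4, Asns, Aimp1, Eef1e1, Flot1, Ddr1, Ppp1r18, Dhx16, Cchcr1 and the individual marker genes were named outside that rule, after their values were seen. Gene reads without molecular identifiers are not independent molecules, so counting error is a lower limit on the error. Motifs were searched in RefSeq windows of GRCm38.p6, and all 10 motifs tried are given. Some genes are not reported here by name, and the figures leave them out.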

Additional observations from a re-analysis of the deposited data

Results flagged for a closer look

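Reads of 2 transgene sequences lie outside the gene comparison and were seen in libraries of a single group. Cre-ERT2 had 43 reads over the 3 Rest_het libraries and 0 over the 3 WT libraries. LacZ had 0 reads over the 3 Rest_het libraries and 121 over the 3 WT libraries.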

How the results depend on the processing

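Genes called over all genes numbered 19, against 127 with DESeq2, 107 without a count filter, 6 with the replicate block and 12 to 35 with a library left out. Synthetase genes called numbered 1, against 2 with DESeq2, 0 with the replicate block and 0 with any library left out. The log2 difference of Farsa was -0.74 with the replicate block (adjusted p 0.14) and -0.76 to -0.68 with a library left out, past the threshold in neither. Whether the replicate numbers pair the libraries was not settled. Correlations of same-numbered deviations from the group mean were -0.0081, 0.0501 and -0.163. They run over all tested genes at once and do not decide it. With a library left out, the cytosolic median was -0.029 to -0.0030, the mitochondrial median -0.035 to 0.047 and the ATF4 list median 0.090 to 0.23. Vars2 was called under DESeq2 (0.92). Dars turned to -0.0046, -0.015 and -0.0046, and Tars to -0.00061, -0.011 and -0.00053, under size factors, upper quartile and DESeq2. With libraries left out, sign-changing genes had these ranges: Aars -0.010 to 0.080, Aars2 -0.16 to 0.039, Dars -0.030 to 0.038, Ears2 -0.20 to 0.035, Eprs -0.072 to 0.014, Iars -0.020 to 0.11, Iars2 -0.22 to 0.16, Lars -0.13 to 0.061, Lars2 -0.021 to 0.090, Mars2 -0.16 to 0.035, Nars2 -0.078 to 0.22, Tars -0.025 to 0.027, Tars2 -0.15 to 0.047 and Tarsl2 -0.20 to 0.17. The cause was not tested. Depth limits the precision of low genes: Ears2 had 51 to 65 reads in Rest_het and 54 to 79 in WT.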

Other observations

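The elongation machinery that uses charged tRNA held no called gene. Of 7 cytosolic elongation genes, 4 were below and 3 above 0 (median log2 difference -0.05), and 0 were called by edgeR or DESeq2. Eef2, which moves the ribosome along the mRNA, averaged 514 ± 31.7 CPM in Rest_het and 586 ± 25.5 in WT (SD, n = 3 each). It was the only member at an unadjusted p under 0.05 (1 of 7, against 11.7% of all tested genes). Of 10 mitochondrial translation factors, 7 were below and 3 above 0 (median -0.036). Of the 10, 0 were called by edgeR or DESeq2 and 0 had an unadjusted p under 0.05 (against 11.7% of all tested genes).

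Near Vars2, 14 tested protein-coding genes start within 250 kb. Their median log2 difference was 0.276, 4 of 14 did not overlap between the groups (against 19.3% of all tested genes), and 0 were called by edgeR or DESeq2. Flot1 and Ddr1, named after their values were seen, had the highest log2 differences of the 14 (0.58 and 0.53). Flot1 was at 33.8, 36.6 and 33.2 CPM in Rest_het and 12.0, 27.3 and 30.02 CPM in WT. Ddr1 was at 46.3, 41.4 and 42.9 CPM in Rest_het and 14.8, 37.5 and 38.1 CPM in WT. In both genes, as in Vars2, WT replicate 1 was the lowest library. The same held for Ppp1r18, Dhx16 and Cchcr1, but not for the remaining genes of the 14. With any library left out, the log2 difference of Vars2 was between 0.77 and 1.07.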
